A study of Mus musculus with 6 samples.

Results

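The left ventricle of the mouse heart was examined for 10 genes of resident macrophages and their lineage: Csf1r, Ccr2, Lyz2, Cd68, C1qa, C1qb, C1qc, Mrc1, Cd163 and Spi1. Every probe set (a group of short probes that reads 1 transcript) whose platform annotation names exactly 1 of these genes was taken. This gave 17 of 45101 probe sets, and 10 of the 18193 genes that probe sets name singly: 4 for Ccr2, 3 each for Csf1r and C1qb and 1 for each of the other 7 genes. The genes were chosen on measured values, the difference of macrophage genes between the genotypes in these same arrays, so that difference is described here and not tested. Left ventricles from akt2-/- mice, in which both copies of the Akt2 gene are disrupted, gave 3 samples, and wild type mice gave the other 3. All mice were male, C57BL/6 and 12 to 16 weeks old, and the akt2-/- line had been backcrossed to C57BL/6. The disruption was not restricted to any cell type, so macrophages and myocytes alike carry it. Whether each sample was a different animal is not in the labels, so the errors cover the spread between samples, which may be technical.

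Macrophages live among the myocytes of the healthy heart, where they take up debris and dying cells. Their growth and survival depend on the receptor encoded by Csf1r, which binds colony-stimulating factor 1 and interleukin 34. Spi1 encodes PU.1, an Ets family transcription factor needed for the myeloid lineage, and Ccr2 encodes the chemokine receptor that draws monocytes from the blood. C1qa, C1qb and C1qc encode the 3 chains of C1q, the recognition protein of the classical complement pathway, and Mrc1 and Cd163 encode endocytic receptors for glycoproteins and for haemoglobin bound to haptoglobin.

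Each sample was hybridised to 1 array, and the deposited values are linear MAS5 signals. The signal of Akt2, as a check of the labels, was 2476 ± 102 in the wild type and 375.9 ± 112 in the knockout (SD, n = 3 each), with the groups apart. The 2 arrays numbered 1, wild type and knockout, differed from the remaining 4. Wild type 1 had a median signal of 167.2 and knockout 1 of 134.3, against 88.4 to 91.2 in the other 4, and their 18S ribosomal control signals were 82330 and 57280, against 152.7 to 446.7. Each genotype holds 1 of these arrays, so the plot of probe set differences gives each for all 6 arrays, for the replicate 1 pair and for replicates 2 and 3.

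By their brightest probe sets, 10 of 10 macrophage genes had a lower mean in the knockout, with small differences for all but Spi1, Ccr2 and Lyz2. The median log2 difference was -0.24, against 0.01 over all 11075 genes tested, of which 46.7% were lower. In the replicate 1 pair it was -0.30, and replicates 2 and 3 gave -0.17. Differences here are on the scale log2(signal + 21.7), which understates the change of dim genes, and each error is a moderated standard error (SE) from limma. In 1 of the 10 genes, Spi1, all knockout arrays lay below all wild type arrays, as the groups were apart in either direction in 7.46% of all genes. In limma's fit 0 of the 10 genes had an adjusted p under 0.05, as had 0 of all genes (0%), and 1 had an unadjusted p under 0.05, as had 1.76% of all genes. The rule for choosing the genes used this contrast, so nothing is read from these counts. In a whole ventricle, fewer macrophages and less RNA per macrophage cannot be told apart.

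The knockout arrays did not behave alike. Knockout 1 was the lowest of the 6 arrays in 10 of 10 genes, as it was in 15.7% of all genes. With arrays paired by their number, whose meaning is not in the labels, knockout 2 lay below wild type 2 in 10 of 10 genes. Knockout 3 lay below wild type 3 in 4 of 10, namely Csf1r, Lyz2, C1qc and Spi1. Among all genes these shares were 48.7% for pair 1, 50.1% for pair 2 and 48% for pair 3. The choice of genes used the same values, so these counts are a description as well. In Cd68, C1qa, C1qb, Mrc1 and Cd163 knockout 3 was above the mean of wild types 2 and 3. Without knockout replicate 1 the median over the 10 genes was 0.08 and 4 of 10 were lower. Leaving out wild type replicate 1, 2 or 3 instead gave -0.47, -0.07 and -0.06, and leaving out knockout replicate 3 gave -0.51. Each of these fits leaves unequal shares of the replicate 1 arrays in the genotypes.

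**Figure D1:**
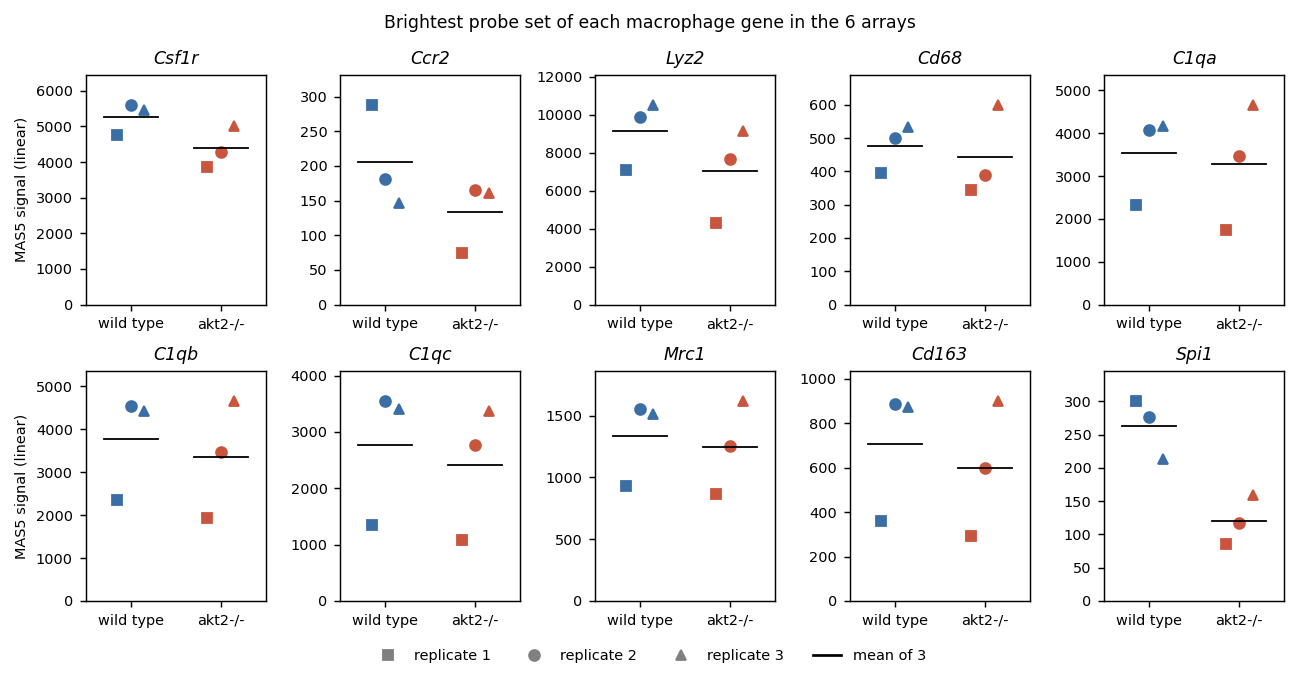
Linear MAS5 signal (y axis) of the brightest probe set of each gene in the 3 wild type and 3 akt2-/- arrays (x axis), with the replicate number as the symbol and the mean as a line. The Spi1 groups do not overlap, with 85.1 to 159.2 in the knockout and 212.6 to 300.5 in the wild type, while in Cd163 and the C1q genes the replicate 1 squares are low in both genotypes.

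Spi1 differed most among the brightest probe sets. Its only probe set had signals of 300.5, 275.8 and 212.6 in wild types 1, 2 and 3 and of 85.1, 116.7 and 159.2 in knockouts 1, 2 and 3. The lowest wild type array thus lay above the highest knockout array. The means were 263 ± 45.3 and 120.3 ± 37.2 (SD, n = 3), a log2 difference of -1.02 (SE 0.253). The difference was -1.59 for the arrays numbered 1, -1.10 for those numbered 2 and -0.37 for those numbered 3. Leaving out any 1 array gave -1.21 to -0.83. Spi1 was a dim probe set. The filter on low values corresponds to a signal of about 95.1, and knockout 1 was below it.

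Csf1r, the receptor on which heart macrophages depend, was read by 3 probe sets. The brightest had 4749, 5616 and 5474 in the wild type arrays and 3868, 4280 and 5021 in the knockout arrays. Knockouts 1 and 2 were below every wild type array and knockout 3 was within the wild type range. Its log2 difference was -0.27 (SE 0.186), where the replicate 1 pair gave -0.29 and the remaining arrays gave -0.26. The other probe sets gave -0.11 (SE 0.253) and -0.17 (SE 0.201), with overlapping groups in all 3. The probe set at -0.11, 1419873_s_at, was at 0.03 without wild type replicate 3 and at 0.06 without knockout replicate 2, and 1423593_a_at ran from -0.31 to -0.03 when 1 array was left out. Of the 7 tested genes among the ligands of Csf1r and related growth factors and receptors, 7 were lower, against 46.7% of all genes, with a median of -0.08. The replicate 1 pair gave a median of -0.24 and the remaining arrays one of -0.28, and it was 0.01 with median centring, where the median of all genes was 0.11. In limma 0 of the 7 passed and 1 had an unadjusted p under 0.05. That gene was Il34, the second ligand of Csf1r, with 130.4 ± 23 in the wild type and 85.87 ± 14.3 in the knockout (log2 -0.50, SE 0.205, limma adjusted p = 1). Its groups were apart, at signals close to the filter. Csf2rb, the shared receptor chain for interleukin 3, interleukin 5 and GM-CSF, had -0.44 (SE 0.291).

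Ccr2 had 4 probe sets, and they did not agree. The brightest had 288.5, 181 and 145.8 in the wild type and 73.7, 164.8 and 160.8 in the knockout. Its log2 difference of -0.57 (SE 0.353) came from the replicate 1 pair, at -1.70, and was 0 in replicates 2 and 3. A second probe set, 1421188_at, had 164, 140.7 and 114.4 against 112.5, 70.5 and 68.2. Here every knockout array was below every wild type array, with a log2 difference of -0.63 (SE 0.234), where the replicate 1 pair gave -0.47 and the remaining arrays gave -0.71. The third, 1421187_at, did not pass the filter and ran the other way, with 16.3, 75 and 68 in the wild type and 137.8, 112.4 and 116 in the knockout (log2 1.05). The fourth, 1460067_at, also below the filter, had signals of 14 to 144.6 in overlapping groups (log2 -0.39). The first 3 of these probe sets carry 1 source accession in the platform annotation. The direction for Ccr2 therefore depends on the probe set.

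Among 14 tested chemokine genes, 9 were lower and 5 higher in the knockout, with a median of -0.26, against 0.01 over all genes. The median was -0.41 in replicates 2 and 3. It was smaller in size in some settings, at -0.17 with quantile normalization, -0.19 with a pseudocount of 100 and -0.16 with median centring. With median centring the median of all genes was 0.11. A stricter filter on low values gave -0.83, which was the value of Ccl9, and most of the 14 genes were dimmer than Ccl9. In limma 0 of 14 passed and 3 had an unadjusted p under 0.05, all lower, where 1.00% of all genes had such a p and were lower. Ccl2, the main ligand of the Ccr2 receptor, had 259.3, 382.6 and 303.5 in the wild type and 195.4, 189.1 and 233.5 in the knockout (log2 -0.55, SE 0.206, limma adjusted p = 1). Each knockout array was below each wild type array. Ccl24, a chemokine that attracts eosinophils, had 167.3 ± 31.7 against 81.27 ± 45.3 (log2 -0.97, SE 0.359, limma adjusted p = 1). The third was Ccl7, another ligand of Ccr2, with a log2 difference of -0.51 (SE 0.204). Ccl7 was named after its values were seen.

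**Figure D2:**
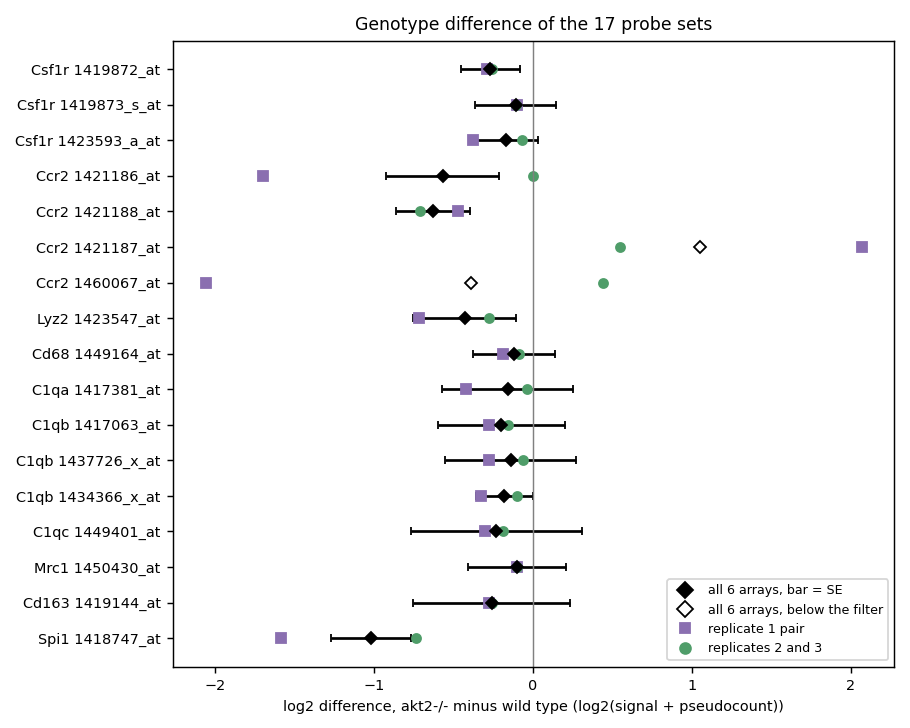
Log2 difference of akt2-/- minus wild type (x axis) for the 17 probe sets (y axis), with all 6 arrays as diamonds (bars are SE, open where the probe set did not pass the filter), the replicate 1 pair as squares and replicates 2 and 3 as circles. Of the 17 probe sets 16 lie below 0 over the 6 arrays, and the exception is the Ccr2 probe set at 1.05.

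The C1q genes lie next to each other on mouse chromosome 4 in the order C1qb, C1qc, C1qa. They were bright and moved together from array to array. C1qa had 2336, 4084 and 4164 in the wild type and 1744, 3459 and 4670 in the knockout. C1qb had 2347, 4530 and 4425 against 1935, 3461 and 4657, and C1qc had 1347, 3550 and 3415 against 1088, 2770 and 3363. In each of the 3 genes both replicate 1 arrays were the lowest of the 6, knockout 2 was below wild types 2 and 3, and knockout 3 was close to them or above. The log2 differences between genotypes were -0.16 (SE 0.413) for C1qa, -0.20 (SE 0.401) for C1qb and -0.23 (SE 0.539) for C1qc. These signs turned in some fits without 1 array. Without knockout replicate 1 the differences were 0.23, 0.15 and 0.26, and over the fits without 1 array they went down to -0.47, -0.50 and -0.68. With the replicate 1 arrays as a block the SE were 0.166, 0.15 and 0.129. A further C1qb probe set, 1437726_x_at, followed the brightest one with 566.5, 1029 and 1157 against 461.5, 942.3 and 1156. The other, 1434366_x_at, had 697.7, 707.8 and 735.3 against 550.2, 616.1 and 735, a narrow range in the wild type and a wider one in the knockout. The suffix _x_at marks probe sets with probes that may also bind other transcripts.

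Of the receptors, Cd163 had 361.2, 887.5 and 874.3 in the wild type and 294.7, 597.2 and 900.8 in the knockout. Its log2 difference was -0.26 (SE 0.494), and the replicate 1 pair alone gave -0.28. Mrc1, the mannose receptor, had 929.3, 1551 and 1514 against 863.5, 1256 and 1619 (log2 -0.10, SE 0.311). Cd68, a glycoprotein of the endosomes and lysosomes of macrophages, had 396.6, 501 and 533.4 against 344, 389.4 and 600.9 (log2 -0.12, SE 0.256). In these 3 genes knockout 3 was the highest of the 6 arrays and knockout 1 the lowest. Without knockout replicate 1 the 3 differences turned to between 0.03 and 0.16. Cd163 had one of the wider ranges over the fits without 1 array, from -0.68 to 0.16.

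Lyz2 encodes lysozyme M, the bactericidal enzyme of macrophages and neutrophils. It had 7116, 9865 and 10547 in the wild type and 4303, 7681 and 9169 in the knockout. Knockout 1 was lowest, and knockouts 2 and 3 lay between wild type 1 and wild type 2. The log2 difference was -0.43 (SE 0.325), with -0.72, -0.36 and -0.20 for the pairs numbered 1, 2 and 3, and leaving out any 1 array gave -0.65 to -0.11. Lyz1, its neighbour on chromosome 10, is a near copy, so reads of either gene's transcript by probes for the other are possible. The brightest Lyz1 probe set, 1436996_x_at, had 12425, 16181 and 16515 against 8609, 13127 and 16582 (log2 -0.27, SE 0.282), with the replicate 1 array lowest in both genotypes as in Lyz2. Another that passed the filter, 1439426_x_at, had 1795.9, 13877.5 and 14211.7 against 1535.6, 8752.2 and 10760.5 (log2 -0.43). A Lyz1 probe set without the _x_at suffix, 1450822_at, was below the filter and ran the other way (log2 1.31). It had 5.5, 30.2 and 8 in the wild type and 118.7, 49.9 and 41.4 in the knockout. Every knockout array was thus above every wild type array.

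The promoters of C1qb, C1qc, Cd68 and Mrc1 show where GAGGAA, a purine-rich core like those that PU.1 binds, lies near the start of these genes. They are printed because PU.1, the product of Spi1, is known as a factor of the macrophage lineage. The 300 bases run from 250 before to 50 after each gene's start, from RefSeq on build GRCm38.p6, in the direction of the gene. The table has entries for 7 of the 10 genes, all but Csf1r, C1qa and Spi1, and 4 of the 7 held GAGGAA on either strand, against 28.3% of 32851 promoters in the same table. Ccr2, Lyz2 and Cd163 held none in this window. Capitals mark GAGGAA, or TTCCTC where it lies on the other strand. C1qb is at chr4:136886151-136886450 on the minus strand, with the motif starting 30 bases before the start. C1qc is at chr4:136892865-136893164 on the minus strand, Cd68 at chr11:69666121-69666420 on the minus strand and Mrc1, with 3 matches, at chr2:14229164-14229463 on the plus strand. A match describes letters and not a bound site.
C1qb: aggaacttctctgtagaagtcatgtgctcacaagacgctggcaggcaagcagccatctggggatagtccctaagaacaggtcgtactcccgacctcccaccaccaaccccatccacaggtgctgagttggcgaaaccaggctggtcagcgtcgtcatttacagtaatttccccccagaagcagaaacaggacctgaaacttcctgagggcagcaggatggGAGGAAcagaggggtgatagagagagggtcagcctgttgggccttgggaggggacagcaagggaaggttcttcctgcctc
C1qc: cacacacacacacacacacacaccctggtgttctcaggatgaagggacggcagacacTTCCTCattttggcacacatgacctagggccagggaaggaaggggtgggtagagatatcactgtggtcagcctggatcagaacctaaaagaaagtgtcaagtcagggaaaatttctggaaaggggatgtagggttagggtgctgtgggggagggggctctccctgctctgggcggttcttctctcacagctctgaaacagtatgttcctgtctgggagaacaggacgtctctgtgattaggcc
Cd68: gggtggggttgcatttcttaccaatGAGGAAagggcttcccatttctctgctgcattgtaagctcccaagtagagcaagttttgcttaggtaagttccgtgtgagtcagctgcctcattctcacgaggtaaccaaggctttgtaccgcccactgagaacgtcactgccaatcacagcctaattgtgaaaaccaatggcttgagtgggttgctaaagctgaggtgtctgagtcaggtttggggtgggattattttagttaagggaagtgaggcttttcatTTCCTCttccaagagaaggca
Mrc1: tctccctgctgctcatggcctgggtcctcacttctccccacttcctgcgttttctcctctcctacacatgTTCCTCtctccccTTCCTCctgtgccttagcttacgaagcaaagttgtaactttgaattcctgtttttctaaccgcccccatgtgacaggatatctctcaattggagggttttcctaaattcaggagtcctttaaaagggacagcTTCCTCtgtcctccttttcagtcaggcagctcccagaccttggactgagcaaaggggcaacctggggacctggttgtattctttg

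A comparison that the choice of genes did not use is that of the replicate 1 arrays with the other 4. In it 6 of the 10 macrophage genes were lower at an adjusted p under 0.05 in limma with genotype in the model, where 13.3% of all genes were lower, 16.2% higher and 29.5% different in either direction (33.1% of all probe sets). These were Lyz2, C1qa, C1qb, C1qc, Mrc1 and Cd163. C1qc was lower by the widest margin, with a log2 difference of -1.41 (SE 0.136, limma adjusted p = 0.0109), followed by Cd163 with -1.25 (SE 0.185, limma adjusted p = 0.0128). C1qa had -1 (SE 0.176), C1qb -0.98 (SE 0.159), Lyz2 -0.74 (SE 0.161) and Mrc1 -0.71 (SE 0.146), with limma adjusted p between 0.0141 and 0.0246, all adjusted over the 11075 genes. Within the genotypes C1qc had -1.36 in the wild type and -1.47 in the knockout, and Mrc1 had -0.71 in both.

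Csf1r, Ccr2, Cd68 and Spi1 did not pass in that comparison. Csf1r had -0.24 (SE 0.128, limma adjusted p = 0.193) and Cd68 -0.42 (SE 0.192, limma adjusted p = 0.144). For Spi1 the replicate 1 array was higher than the mean of the other 2 in the wild type, by 0.29, and lower in the knockout, at -0.57, and Ccr2 had 0.75 and -0.95. In these 2 genes, which had the widest gaps between knockout 1 and wild type 1, the replicate 1 arrays deviated in opposite directions in the 2 genotypes. Probe sets of C1qb differed here as well, with -1.03 for 1437726_x_at and -0.16 for 1434366_x_at. Of 25 tested other macrophage genes, 9 were lower and 1 higher in the replicate 1 arrays at an adjusted p under 0.05 in limma. These counts were 10 and 0 with quantile normalization, and 22 and 0 with median centring. Without rescaling, 5 of 12 endothelial markers passed as lower and 1 as higher, and 3 of 10 fibroblast markers passed as lower and 1 as higher. Lower values in the replicate 1 arrays were thus not particular to macrophage genes. Of 10 tested markers of cardiomyocytes, 9 passed as higher and 0 as lower, with a median log2 difference of 1.12. Nppa did not pass, at -0.31. With quantile normalization only 2 of the 10 passed as higher (median 0.04). With median centring 2 passed as higher and 1 as lower. The part of these markers in the macrophage values was not tested. With quantile normalization the same 6 macrophage genes passed, against 15.1% of all genes passing as lower. With median centring 9 of 10 did, where the median of all genes was itself -0.56 and 52.1% of genes passed as lower.

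**Figure D3:**
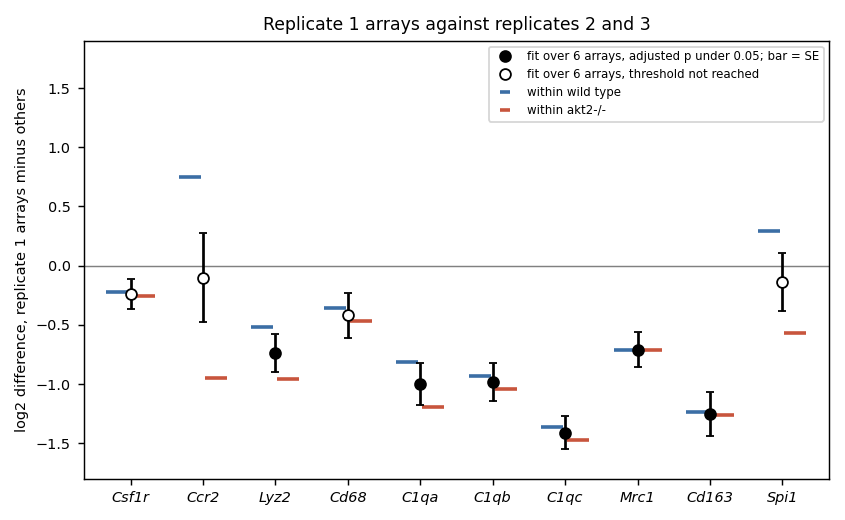
Log2 difference of the 2 replicate 1 arrays minus the other 4 (y axis) for the brightest probe set of each gene (x axis), as circles with SE, filled where the limma adjusted p was under 0.05, with the difference within each genotype as coloured dashes. C1qc at -1.41 and Cd163 at -1.25 are lowest, and the dashes of Ccr2 and Spi1 lie on either side of 0.

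Once the mean of the replicate 1 arrays was taken from those 2 arrays and the mean of the other 4 from those 4, the genes could be compared by pattern. Likeness was the root mean square difference in log2 value over the 6 arrays. This measure includes the genotype difference, which the choice of genes used, and favours genes with deviations of equal size. Closeness among the 10 genes is thus partly fixed in advance. The rank of the other 9 genes, among all genes ordered by likeness to a given one, had a median between 69 from C1qb and 2319 from Ccr2. It was 79 from Cd163, 216 from Cd68, 417 from C1qc, 442 from C1qa, 673 from Mrc1, 756 from Lyz2, 836 from Csf1r and 1000 from Spi1. From C1qb, the starting gene with the lowest median, 6 of the other macrophage genes ranked among the nearest 72 of 11074 genes. They were C1qc at rank 16, Mrc1 at 32, Cd163 at 36, C1qa at 52, Csf1r at 69 and Cd68 at 72. Lyz2 followed at rank 1820, while Ccr2 and Spi1 were at 10362 and 10443. From Spi1, the nearest of the 10 genes was Ccr2 at rank 179, then Lyz2 at 218. The 5 genes most like Spi1 over the 6 arrays were Zfp119b (root mean square difference 0.069), Sec1 (0.111), Cyp26b1 (0.137), 2810403D21Rik (0.14) and Misp3 (0.166). Their own log2 differences between genotypes lay between -1 and -0.78, which the measure of likeness all but fixes. In the knockout, Zfp119b (47.7 to 75.3), Misp3 (72.1 to 79.1) and 2810403D21Rik (57.7 to 93.8) were below the filter signal in every array. These genes passed the filter through their wild type arrays. Sec1 was below it in most arrays of each genotype, and Cyp26b1 had 90.7 in its lowest knockout array. Signals this low limit what the likeness of these genes to Spi1 shows.

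**Figure D4:**
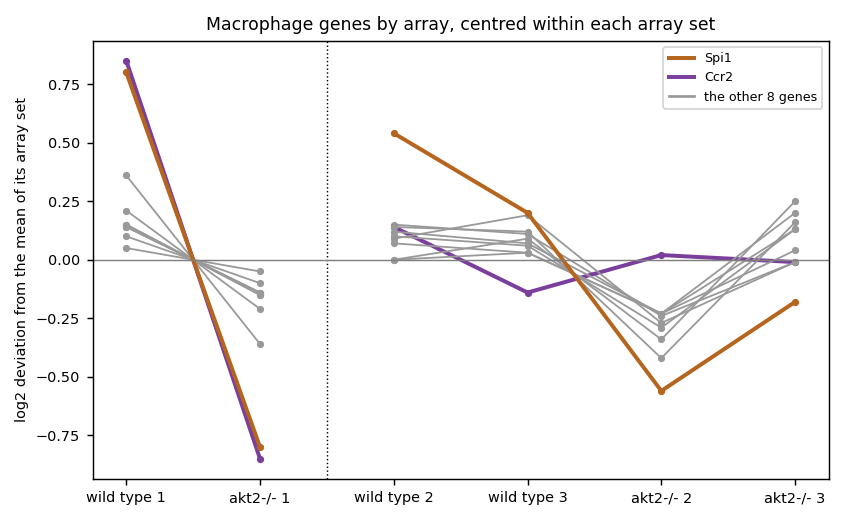
Log2 deviation of each gene from the mean of its own array set (y axis) in the 6 arrays (x axis), replicate 1 arrays left of the dotted line and the other 4 to the right, with Spi1 and Ccr2 in colour and the other 8 genes in grey. Spi1 is at 0.80, 0.54 and 0.20 in the wild type and -0.80, -0.56 and -0.18 in the knockout, and the grey genes dip in knockout 2 and lie between -0.01 and 0.25 in knockout 3.

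Further macrophage genes, listed without the 10, were lower in 18 of 25 tested genes at a median of -0.13, with -0.08 for the replicate 1 pair and -0.15 for replicates 2 and 3. In limma 0 of the 25 passed, and 0 had an unadjusted p under 0.05. Cbr2, a carbonyl reductase found in resident macrophages, had 1263 ± 103 in the wild type and 939.8 ± 192 in the knockout (log2 -0.43, SE 0.209, n = 3 each), and its groups were apart. Folr2, a folate receptor of tissue macrophages, had -0.49 (SE 0.272). Over all 19 lists 0 of 173 tested genes passed in limma without a block and 0 with the replicate 1 arrays as a block, where 1 of all genes did (0.00903%). An unadjusted p under 0.05 was found for 9 of them, 8 lower and 1 higher, which is 5.2% against 1.76% of all genes, 1.00% lower and 0.758% higher. The lists were chosen with earlier results known, so this share is a description.

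Of the myeloid transcription factors other than Spi1, 5 of 12 were lower and 7 higher, with a median of 0.07, the replicate 1 pair giving 0.29 and replicates 2 and 3 giving -0.19. Irf8, a partner of PU.1, had -0.35 (SE 0.285), and Nr1h3, the liver X receptor alpha, had 0.39 (SE 0.257). Complement genes beyond C1q had a median of -0.02 over 13 tested genes. Masp1, a protease of the lectin pathway, had 374.5, 345.4 and 467.5 in the wild type against 630.7, 775.4 and 555.7 in the knockout (log2 0.69, SE 0.21, limma adjusted p = 1), and every knockout array was above every wild type array. C3ar1, the receptor for the fragment C3a, had 311.2 ± 48.6 against 212.7 ± 22.3 (log2 -0.50, SE 0.194, limma adjusted p = 1), also with groups apart. Scavenger and haem genes were lower in 9 of 13, with a median of -0.16, which was -0.04 with no filter, 0.04 with a stricter one and -0.06 with median centring. Hmox1, which breaks down haem taken up through Cd163, had 260.4 ± 95.3 against 138.8 ± 69.5 (log2 -0.85, SE 0.368), and Msr1, a scavenger receptor, had -0.52 (SE 0.309). Lysosome genes had a median of 0.06 over 17 genes, with Ctsa, a lysosomal protease, at 0.19 (SE 0.183). Interferon and inflammatory genes had a median of -0.12 over 11 genes, with Retnla at -0.56 (SE 0.303) and Cd80, a costimulatory ligand, at 0.36 (SE 0.248). In none of these 5 lists did a gene pass in limma.

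**Figure D5:**
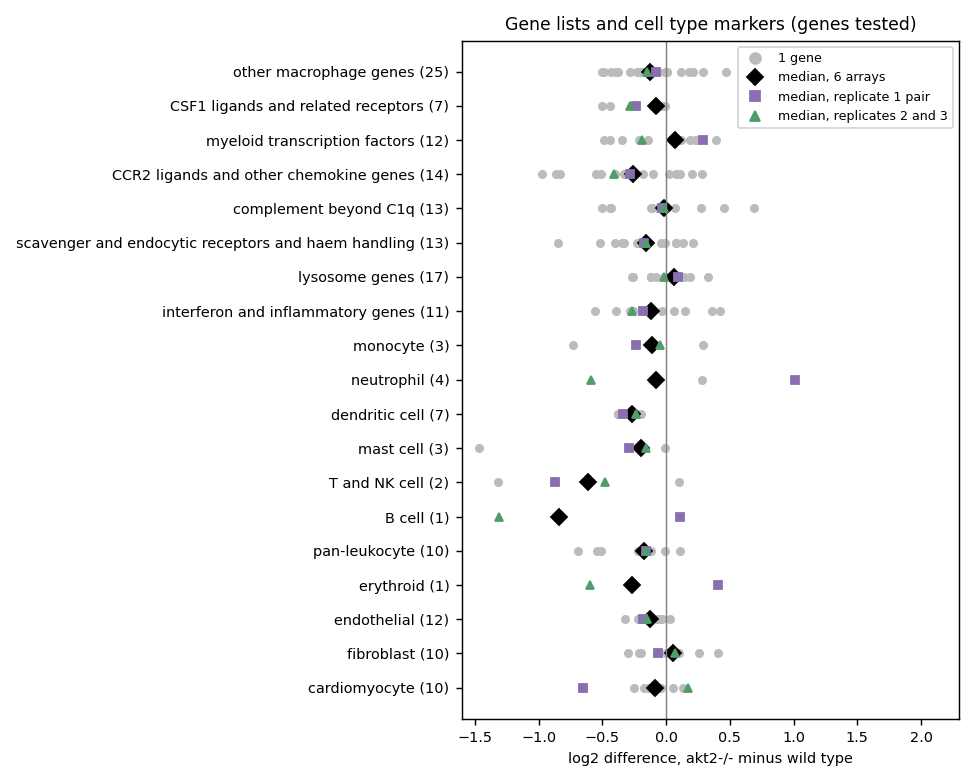
Log2 difference of akt2-/- minus wild type (x axis) for the tested genes of each list (y axis, number tested in brackets), with each gene as a grey point and the median over 6 arrays, the replicate 1 pair and replicates 2 and 3 as coloured symbols. The medians of the other macrophage genes are -0.13, -0.08 and -0.15, and those of the cardiomyocyte markers are -0.09, -0.65 and 0.17.

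Markers of other cells were read beside the macrophage genes. Pan-leukocyte genes were lower in 9 of 10, with a median of -0.17. Their summed signal was 3636 to 4959 in the wild type and 2810 to 4607 in the knockout. Coro1a had -0.69 (SE 0.332), Vav1 -0.54 (SE 0.334) and Laptm5 -0.12 (SE 0.243). Dendritic cell markers were lower in 7 of 7 tested genes of 12 listed, with a median of -0.27 and summed signals of 14120 to 21260 against 12010 to 18880. Among them Zbtb46 had -0.27 (SE 0.164), and the class II antigen genes H2-Eb1 and H2-Aa had -0.38 (SE 0.279) and -0.20 (SE 0.218). Macrophages express class II genes too. Of 10 monocyte markers 3 were tested, with sums of 1310 to 2398 against 1164 to 2199. Plac8 had -0.73 (SE 0.361), Cd44 0.29 (SE 0.438) and Ace -0.11 (SE 0.312). Neutrophil markers, 4 of 10 tested, had sums of 498.2 to 2344 against 787.8 to 1163. S100a8 had 40.8, 1029 and 667.3 against 390.2, 335.2 and 535, and Mmp9 had -0.11 (SE 0.271). The defining markers Camp, Ltf and Cxcr2 were below the filter.

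Lymphocyte and mast cell genes were dim. Of 14 T and NK cell markers 2 were tested, since Cd3d, Cd3e, Cd3g, Cd4 and Cd8a were below the filter. Gzma, granzyme A, had 167.7, 129.1 and 204.6 in the wild type and 29.8, 49.5 and 92.6 in the knockout (log2 -1.32, SE 0.327, limma adjusted p = 1), with groups apart, while Thy1 had 0.10 (SE 0.187). Ighm was the 1 tested B cell marker of 8 (log2 -0.84, SE 0.327), where the replicate 1 pair gave 0.11 and the remaining arrays -1.31, with Cd79a, Cd79b and Ms4a1 below the filter. Of 10 mast cell markers 3 were tested, with sums of 875.5 to 938.6 against 623.4 to 787.8. Kit, 1 of the 3, did not share the lower values, with 114.3 ± 20.9 against 116.8 ± 45.4 (log2 -0.01, SE 0.276). Cpa3, the mast cell carboxypeptidase, had 181.9 ± 57.5 against 51.13 ± 14.5 (log2 -1.47, SE 0.27, limma adjusted p = 1). Like Gzma, it passed the filter through its wild type arrays, every knockout array being below the filter signal. Gata2 had -0.20 (SE 0.204), and Tpsb2, Cma1 and Mcpt4 were below the filter. Alas2, the 1 tested erythroid marker, had -0.27 (SE 0.534), where the replicate 1 pair gave 0.41 and the remaining arrays -0.60. Endothelial markers were lower in 11 of 12, with a median of -0.13 and sums of 21940 to 26420 against 20080 to 23990. Tek had -0.22 (SE 0.159), Vwf -0.32 (SE 0.177) and Cd34 -0.07 (SE 0.285). Fibroblast markers had a median of 0.05 and sums of 45390 to 66780 against 42760 to 74200, with Col3a1 at 0.26 (SE 0.173), Mfap5 at -0.30 (SE 0.177) and Dcn at 0.04 (SE 0.489). Cardiomyocyte markers had a median of -0.09 and sums of 417400 to 1308000 against 502600 to 807900, with Nppa at 0.13 (SE 0.217), Actc1 at -0.25 (SE 0.476) and Myl2 at -0.17 (SE 0.49). In limma 0 genes of these marker lists passed. The part of other cell types in the macrophage differences was not tested.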

How the data were processed

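Left ventricle RNA was measured on 6 Affymetrix arrays. The deposited values are linear intensities, 1 MAS5 signal for each probe set and array, per the submitters' processing notes. Its version and settings: not given in the sources used here. By the deposited values, mean signal between the outer 2% at each end was 499.1 to 500 on every array, and this scaling was kept. No other normalization was applied, and the number of arrays limits the precision. Detection calls were not used here.

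A pseudocount of 21.7, taken as the 20th percentile of the deposited signals, was added before log2 transformation. The 64 control probe sets were left out. The 22519 probe sets whose mean on this scale reached the median of 6.868 entered a linear model of genotype over all 6 arrays in limma 3.58.1 (R 4.3.3; lmFit, eBayes), p-values being adjusted by Benjamini-Hochberg and called under 0.05. Of the 17 probe sets 15 passed this filter and each of the 10 genes had at least 1. Genes were represented by their brightest tested probe set naming 1 gene (34945 probe sets named 1 gene, 932 several and 9160 none). The fit was tested on simulated data with known changes. The replicate 1 arrays were compared with the other 4 in a model with genotype.

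The 10 genes and the 19 lists were chosen with earlier results of these data known. By rule the text names the 10 genes, the 2 genes of lowest unadjusted p in each list, the brightest gene of each cell type list, the 5 genes nearest to Spi1 and Akt2. Ccl7, Ccl9, Csf1 and Kit were named outside this rule, after their values were seen. In the labels both genotypes number their samples 1 to 3. Over the fitted probe sets, the deviation from the genotype mean correlated at 0.61, 0.45 and 0.39 between arrays sharing the number 1, 2 or 3, and at 0.44 and 0.36 across numbers 2 and 3. What the number marks is not in the labels, and arrays were paired by it. The correlations set the arrays numbered 1 apart but scarcely separate numbers 2 and 3. Pairs 2 and 3 therefore rest on the numbers alone. Alternatives changed the pseudocount, filter, scaling or variance estimate, added a replicate block or a block for the replicate 1 arrays, used replicates 2 and 3 or the replicate 1 pair alone, averaged the probe sets of each gene, or left out 1 array.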

Additional observations from a re-analysis of the deposited data

How the results depend on the processing

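Over the 10 macrophage genes the median log2 difference of -0.24 was between -0.30 and -0.15 in the other settings and between -0.51 and 0.08 when 1 array was left out. It was -0.24 with the replicate block, which changed no call, and -0.15 with median centring, where the median of all genes moved to 0.11. The count of probe sets and genes past the threshold, 0 and 0, became 1 and 1 with the replicate 1 arrays as a block and 0 and 1 with a pseudocount of 100. That last gene was Akt2 (log2 -2.46, limma adjusted p = 0.0473, against 0.0887 and a range of 0.0473 to 0.897). The 7464 probe sets that differed in the replicate 1 arrays became 4272 with no filter and 11288 with median centring. Signs turned for Mmp9 (0.01) and Myl2 (0.03) with quantile normalization, for Cd34 with median centring (0.02), for Cd34 (0.01), Myl2 (0.25) and S100a8 (-0.93) in replicates 2 and 3 alone, and for Ctsa with the mean of all its probe sets (-0.23). When 1 array was left out, values ran from -0.63 to 0.25 for Actc1, -0.15 to 0.59 for Cd44, -0.34 to 0.51 for Dcn, -0.53 to 0.41 for Myl2 and -0.97 to 1.07 for S100a8. They ran from -0.30 to 0.14 for Ace, -0.87 to 0.12 for Alas2, -0.24 to 0.19 for Cd34, -0.01 to 0.22 for Thy1, -0.27 to 0.06 for Laptm5, -0.33 to 0.08 for Mmp9 and -0.03 to 0.30 for Nppa. Of the 48 genes named by rule beside the 10, these 12 turned. A further 18 kept their sign but moved by over 1.5 times in at least 1 such fit, and 18 did neither. Without knockout replicate 1, Coro1a was at -0.34, Plac8 -0.32, Folr2 -0.23, H2-Eb1 -0.12, Irf8 -0.09 and Lyz1 -0.02, and without wild type replicate 1, Vav1 was at -0.18, Sec1 -0.16 and Csf2rb -0.15. Among list medians, those of the mast cell markers went from -0.20 to -0.01 with the mean of all probe sets, of T and NK cell markers from -0.61 to -0.18 with no filter, of B cell markers from -0.84 to 0.11 with no filter, of lysosome genes from 0.06 to 0.15 and of complement genes from -0.02 to 0.07 with median centring, and of endothelial markers from -0.13 to -0.04 there. Among the 10 genes, Mrc1, Cd68, Cd163, C1qa, C1qb and C1qc turned when knockout replicate 1 was left out. That fit keeps wild type 1, so the replicate 1 arrays are then in the wild type only. In replicates 2 and 3 alone these genes were at -0.26 to -0.04. Mrc1 also turned without wild type replicate 2 (0.02) or 3 (0.01), and C1qc without wild type replicate 2 (0.01). The causes were not tested. Signals near the filter, as for Spi1, Ccr2 and Il34, limit what their differences show.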
